A study of Mus musculus with 30 samples.

Results

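Macrophages sorted from tumours as MHC-IIlo or MHC-IIhi cells differed in their RNA after 24 h of culture with no lactate added, and that difference is described here over 10 of the study's 30 RNA-seq libraries. The 10 were chosen by the headers of their columns in the raw count matrix, 5 libraries of no-lactate MHC-IIlo against 5 of no-lactate MHC-IIhi, each made from 250000 cultured cells. All cells came from C57BL/6 mice of wild-type genotype that carried subcutaneous tumours of 3LL-R, a Lewis lung carcinoma line. Beside them stand the same subsets lysed fresh after the sort (5 and 5 libraries of 30000 cells, at 0 h) and the same subsets cultured for 24 h with 20 mM sodium L-lactate (5 and 5 libraries of 250000 cells). The labels call the libraries biological replicates but give neither the age nor the number of mice, nor whether mice were pooled, and the culture medium is not given in the sources used here. One tumour line at one site under the skin was the model. The p-values therefore measure the spread between these libraries, whatever its source. In bulk RNA, fewer cells of a type and less RNA per cell cannot be told apart.

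MHC class II molecules carry peptides of proteins taken up by the cell to its surface, where CD4 T cells read them, and the co-activator Ciita switches their genes on together. Macrophages of one tumour vary in how much of it they carry, and are commonly split by it into cells in better perfused, inflamed areas and cells in hypoxic or perivascular areas. Inflammatory stimuli act on macrophages through NF-kB and AP-1, which raise cytokine, chemokine and survival genes, whereas resident-type macrophages are known for receptors and secreted factors that serve the uptake of dead cells, lipid transport and tissue repair.

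Total counts were 24050876 to 29928350 in the MHC-IIlo and 22030754 to 29152519 in the MHC-IIhi libraries, and the 10 most abundant genes took 11.9% to 13.7% and 7.91% to 10.1% of them. Levels are CPM, counts scaled to library size with TMM factors, differences are log2 fold changes of MHC-IIlo over MHC-IIhi ± SE, and genes with an adjusted p under 0.05 passed in the quasi-likelihood test of edgeR with Benjamini-Hochberg adjustment over all genes tested. Values by library are in the order of the header numbers, MHC-IIlo 1, 3, 4, 5 and 6 and MHC-IIhi 3 to 7. Of 13593 genes tested, 2830 passed (20.8%), 1250 of them higher in MHC-IIlo (9.20%) and 1580 lower (11.6%), and the median over all genes tested was -0.01. The deposited FPKM table, whose length-multiplied values are equally distributed in all libraries, gave the opposite balance, 1595 higher and 1154 lower. Large differences were mostly on the MHC-IIhi side: 835 genes that passed were more than 2-fold lower in MHC-IIlo and 329 more than 2-fold higher, and 207 against 9 passed 8-fold. The first principal component of the 10 libraries held 56.0% of the variance and parted the subsets, MHC-IIlo at 38.2 to 51.2 and MHC-IIhi at -48.2 to -37.6.

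The macrophage label was checked first. Adgre1, which encodes the macrophage surface protein F4/80, was at 1036, 871, 589, 769 and 770 CPM in the MHC-IIlo libraries and at 914, 706, 696, 886 and 722 CPM in the MHC-IIhi libraries. The subsets overlapped (0.05 ± 0.18, edgeR adjusted p = 0.889). The 10 macrophage markers summed to 11499 to 15595 CPM in MHC-IIlo and 7526 to 15227 CPM in MHC-IIhi. The lysosomal membrane proteins Cd63 (1.09) and Cd68 (0.86) were higher and the endotoxin co-receptor Cd14 (-1.88) lower in MHC-IIlo. Csf1r, also a marker, was at 310 to 663 against 640 to 1013 CPM. It did not pass in the main edgeR fit and was called lower by DESeq2 (-0.73) and limma voom (-0.76). Of 4 tested neutrophil markers S100a8 was higher in MHC-IIlo (0.55 ± 0.18, edgeR adjusted p = 0.0372), and the 11 listed summed to 790 to 1088 CPM in MHC-IIlo and 763 to 1114 CPM in MHC-IIhi, most of it Mmp8 (means of 836 and 767 CPM), while Ly6g and S100a9 stayed at or under 0.172 CPM in each library. Of 3 tested epithelial or tumour markers Epcam (-4.79) and Cdh1 (-2.37) were lower in MHC-IIlo and Krt8 did not pass; the list summed to 43.5 to 59.9 CPM against 38.7 to 84.3 CPM, with Krt18 at 0 throughout. Lower in MHC-IIlo were also 3 of 4 B cell markers (list sums of 24.1 to 39.2 against 28.7 to 56.4 CPM), 2 of 4 of T and NK cells (3.92 to 6.65 against 7.32 to 19.4 CPM), 2 of 9 of fibroblasts (44.4 to 78.8 against 47.5 to 122 CPM), 2 of 5 of endothelium (318 to 412 against 364 to 671 CPM), and Kit, the 1 tested of mast cells and eosinophils (0.56 to 1.88 against 3.3 to 16.6 CPM for the list). Of 9 platelet and erythroid markers 3 had no read, and the 2 tested, Pf4 and Ppbp, were higher. The list summed to 905 to 1088 against 316 to 544 CPM, most of it Pf4 (866 to 1051 against 305 to 517 CPM). Both genes also stand in the CXC chemokine list below. The filter kept genes with enough reads in the libraries of any single group. A marker near 0 in MHC-IIlo, such as Igkc of the B cell list, could therefore only be called lower or not at all. The part of such cells in the differences below was not tested.

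**Figure D1:**
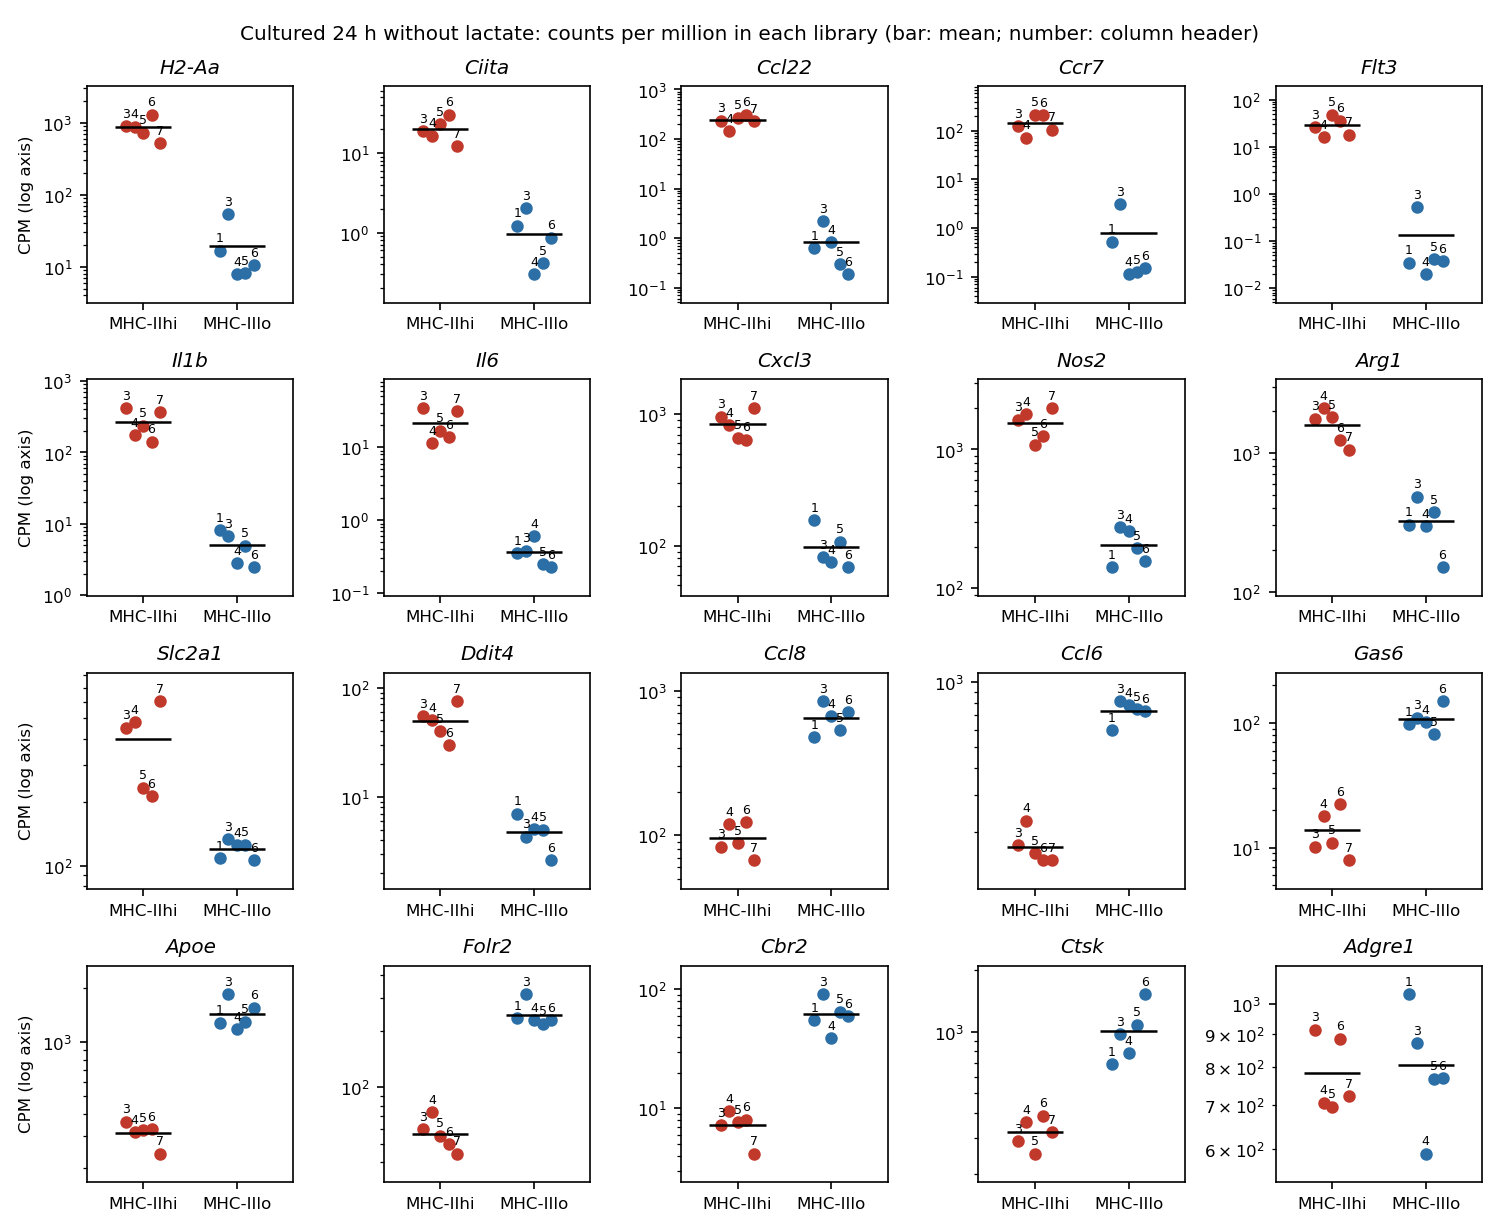
CPM on a log axis of 20 genes in each no-lactate library, with points for libraries in the 2 subsets and a line at each subset's mean; a library at 0 is drawn at 0.02 CPM (Flt3 in MHC-IIlo 4). Adgre1 overlaps between the subsets, whereas the points of the other 19 genes do not.

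MHC class II genes remained apart after a day outside the tumour. Of 15 tested genes of class II presentation, 12 were lower in MHC-IIlo and 1 was higher, with a median of -2.56, and 11 of the 12 had no overlap between the libraries (10.1% of all genes tested did not overlap in that direction). The cells had been sorted by class II level, so a lower level of this family in fresh MHC-IIlo follows from the sort. After culture the family still separated the subsets, which is no independent support for the label. The sequences of 2 of these genes' promoters are shown because both hold the Y box that class II genes are known for, CTGATTGG, in capitals, read on both strands in the 250 bases before the start site (RefSeq, GRCm38.p6). H2-Aa lies on the minus strand (chr17:34287824-34288073) with the match 51 bases before the start, and H2-Eb1 on the plus strand (chr17:34305617-34305866) with the match 62 bases before it.

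H2-Aa: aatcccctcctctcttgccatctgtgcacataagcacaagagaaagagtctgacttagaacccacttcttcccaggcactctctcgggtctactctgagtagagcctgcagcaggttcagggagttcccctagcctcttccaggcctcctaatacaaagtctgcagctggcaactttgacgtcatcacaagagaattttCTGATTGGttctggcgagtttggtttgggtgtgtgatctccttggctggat
H2-Eb1: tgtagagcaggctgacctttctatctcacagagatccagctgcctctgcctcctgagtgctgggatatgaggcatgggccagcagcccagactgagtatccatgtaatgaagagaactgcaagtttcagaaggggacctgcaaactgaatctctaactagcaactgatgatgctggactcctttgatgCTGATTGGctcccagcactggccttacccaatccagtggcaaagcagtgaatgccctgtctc

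Of the 15 listed class II genes 10 were matched to RefSeq promoters, and 4 of their 11 promoters held the Y box in either direction (H2-Aa, H2-Eb1, H2-Eb2 and H2-Oa), against 4.1% of 32851 promoters of all genes. Here and for the elements below, the counts also cover bases just after the start site, which the sequences shown leave out. A match describes these letters only.

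H2-Aa (ENSMUSG00000036594, chromosome 17, 34282744 to 34287827, GRCm38), which encodes an alpha chain of class II, was at 16.8, 53.3, 7.95, 8.23 and 10.6 CPM in MHC-IIlo and at 895, 885, 726, 1293 and 522 CPM in MHC-IIhi. The lowest MHC-IIhi library was thus well above the highest MHC-IIlo library, and MHC-IIlo 3 was the highest of its group. The difference was -5.46 ± 0.56 (edgeR adjusted p = 5.2e-07), and -6.31 without MHC-IIlo 3. H2-Eb1, a beta chain, was at 6.48, 29.6, 2.47, 2.26 and 4.25 against 607, 556, 469, 860 and 339 CPM (-5.95 ± 0.61, and -7.19 without MHC-IIlo 3). The other beta chain, H2-Ab1, was at 28.9, 71.6, 15.8, 15 and 18.5 CPM in MHC-IIlo, again highest in library 3, and at 778 to 1575 CPM in MHC-IIhi (-5.25 ± 0.43, and -5.88 without MHC-IIlo 3). Cd74, the invariant chain that guides class II through the cell, followed the same order of MHC-IIlo libraries as H2-Ab1, with 93.7, 222, 59.1, 52.7 and 69.1 CPM against 2108 to 3748 CPM.

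The regulator and the peptide-loading genes moved less evenly. Ciita, the co-activator of the family, was at 1.23, 2.05, 0.304, 0.418 and 0.865 CPM in MHC-IIlo and at 18.6, 16.5, 23, 30.2 and 12.1 CPM in MHC-IIhi (-4.34 ± 0.44). H2-DMb1, a chain of the peptide editor, differed far less, with 18, 25.2, 15.1, 17.2 and 15.9 against 64.2, 62.3, 39.9, 75.4 and 39.6 CPM (-1.61 ± 0.22). Its near copy H2-DMb2 was at -4.20 ± 0.39, at a mean of 0.198 against 3.73 CPM, and reads of the pair may be split uncertainly. The ubiquitin ligases of class II went opposite ways: March1, which sends class II to lysosomes, was lower (-1.10 ± 0.29), and March8, of the same family, was the 1 member that was higher (0.73 ± 0.11). The protease Ctss (0.20, edgeR adjusted p = 0.635) and the reductase Ifi30, which prepare peptides, did not pass. H2-DMa passed at -1.12 and lost its call without MHC-IIhi 6 (-0.90, adjusted p = 0.0506).

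Very wide differences were seen in genes known from mature dendritic cells that leave a tissue for lymph nodes. Of 23 tested members of that list 22 were lower in MHC-IIlo, 20 of them without overlap, and the median was -1.98. Ccl22 (ENSMUSG00000031779, chromosome 8, 94745590 to 94751699), a chemokine for regulatory T cells, was at 0.63, 2.2, 0.837, 0.293 and 0.188 CPM in MHC-IIlo and at 233, 146, 271, 310 and 230 CPM in MHC-IIhi (-8.14 ± 0.44, and -8.91 without MHC-IIlo 3). Ccr7 (chromosome 11, 99144196 to 99155077), the receptor that leads cells to lymph nodes, was at 0.525, 3.11, 0.114, 0.125 and 0.15 against 125, 72.5, 215, 210 and 106 CPM (-7.47 ± 0.64, and -9.24 without MHC-IIlo 3). In both genes MHC-IIlo 3 was the highest of its group and MHC-IIhi 4 the lowest of the other.

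Il4i1, an enzyme that breaks down aromatic amino acids, was at 1.09, 2.54, 0.837, 0.669 and 1.09 CPM in MHC-IIlo against 91.9, 53.7, 116, 138 and 75 CPM (-6.23 ± 0.40). Stat4, which carries interleukin 12 signals, had no read in MHC-IIlo 1, 4 and 6 and 0.645 CPM in MHC-IIlo 3, against 11.1 to 23.4 CPM in MHC-IIhi (-6.85 ± 0.61, and -9.49 without MHC-IIlo 3). Ccl17, the other ligand of Ccr4, had no read in any MHC-IIlo library and 3.59 to 7.97 CPM in MHC-IIhi, so it was at least 248-fold lower against a floor of 3 counts over the group. Its receptor Ccr4 (at least 34.2-fold lower) and the cytokine Il22 (at least 69.4-fold lower) were likewise without a read in MHC-IIlo. Fscn1, which bundles actin in dendrites, was expressed by both subsets, at 79.6, 77.6, 94.3, 96.8 and 68.6 against 223, 155, 465, 365 and 197 CPM (-1.75 ± 0.29). Smaller falls were those of Samsn1 (-3.42), Traf1 (-1.98), Tmem123 (-1.82) and Relb (-1.06), and Il15 was the member that did not pass.

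Dendritic cell markers were lower too. All 9 of the 13 markers with enough reads for a test were lower in MHC-IIlo (4 in the FPKM table, which lists fewer of them). Markers near 0 in MHC-IIlo, such as Flt3 and Zbtb46, entered the test only through MHC-IIhi libraries. For them the direction of a call was fixed by the filter, and the count of 9 is no separate support. The 13 markers summed to 4.24 to 8.16 CPM in MHC-IIlo and to 179, 102, 310, 281 and 146 CPM in MHC-IIhi. Ccr7 stands in both lists and made up most of the MHC-IIhi sum; without it the markers summed to 3.71 to 5.14 CPM and to 53.9, 29.8, 95, 71.1 and 40 CPM. Flt3, the growth factor receptor of dendritic cells, was at 0.035, 0.531, 0, 0.0418 and 0.0376 CPM in MHC-IIlo against 26.2, 16.1, 48.5, 36.3 and 18.2 CPM (-7.75 ± 0.64, and -9.76 without MHC-IIlo 3). Zbtb46, a dendritic cell transcription factor, was at 0.14 to 0.495 CPM against 3.26 to 10.3 CPM (-4.45 ± 0.42). Several surface markers of the classical and plasmacytoid classes were near 0 in both subsets. Xcr1, Clec9a and Cd209a reached at most 0.187, 0.273 and 0.167 CPM in any of the 10 libraries, and Siglech had no read. The transcription factors Batf3 (-4.16) and Spib (-4.90), of the same marker list, were tested and lower in MHC-IIlo. The part of dendritic cells in the lower class II and maturation genes of MHC-IIlo was not tested. Monocyte genes were lower too, 6 of 10 (1 higher, the coagulation factor F13a1 at 1.37), but only 2 of the 10 did not overlap in that direction. Ly6c2, among the 6, lost its call without MHC-IIhi 6 (-1.32, edgeR adjusted p = 0.164) and in the FPKM table (-1.38). Ccr2, the receptor for monocyte entry, was at 9.7, 17.7, 7.53, 10.2 and 9.74 against 38.6, 49.2, 79.3, 100 and 14.3 CPM (-2.34 ± 0.42). The matrix proteoglycan Vcan (-1.94) and Plac8 (-2.97) fell with it, and the lowest MHC-IIhi library for Ccr2, number 7, lay below MHC-IIlo 3.

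Chemokine calls were mostly lower in MHC-IIlo in the CXC family, whose ligands of Cxcr2 attract neutrophils, and higher in the CC family, many of whose members attract monocytes. Of 12 tested CXC and CX3C chemokines 8 were lower and 2 higher (median -1.53), 1 higher without MHC-IIhi 3, 6 or 7 or MHC-IIlo 1 or 5, where Ppbp lost its call. Ppbp (1.04), also a ligand of Cxcr2, and Pf4 (1.13) were the 2 that were higher. Of 12 tested CC chemokines 6 were higher (median 0.78) and none lower with edgeR (0 at an unadjusted p under 0.05, 0 with DESeq2 and 1 with limma voom). In the edgeR fit of the 10 no-lactate libraries alone Ccl5 was called lower (-0.71). The promoters of Cxcl1 (chr5:90890995-90891244), Cxcl2 (chr5:90903649-90903898) and Cxcl3 (chr5:90785851-90786100), 3 neighbours on the plus strand of chromosome 5 that move together, are shown with a kappaB element in capitals (RefSeq, GRCm38.p6). The match starts 71, 97 and 73 bases before the start site.

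Cxcl1: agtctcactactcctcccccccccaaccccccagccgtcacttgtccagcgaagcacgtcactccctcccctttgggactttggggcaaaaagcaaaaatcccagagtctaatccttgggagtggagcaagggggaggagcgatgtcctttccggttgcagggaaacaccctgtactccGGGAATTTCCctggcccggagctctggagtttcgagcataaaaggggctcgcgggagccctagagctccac
Cxcl2: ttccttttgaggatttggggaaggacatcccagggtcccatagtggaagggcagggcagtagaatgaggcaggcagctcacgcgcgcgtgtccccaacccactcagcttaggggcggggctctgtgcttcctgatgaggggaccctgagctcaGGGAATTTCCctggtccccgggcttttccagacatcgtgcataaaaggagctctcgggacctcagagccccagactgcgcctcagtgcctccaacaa
Cxcl3: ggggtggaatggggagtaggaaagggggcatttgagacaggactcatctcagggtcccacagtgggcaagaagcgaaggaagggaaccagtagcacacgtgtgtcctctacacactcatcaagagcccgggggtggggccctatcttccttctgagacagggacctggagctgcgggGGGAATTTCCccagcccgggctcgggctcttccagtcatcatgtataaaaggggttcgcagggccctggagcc

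Searched on both strands, this element stood in 1.2% of 32851 promoters, in 4 of the 12 matched promoters of the CXC list and in 11 of 30 of the NF-kB list. None of the 22 matched promoters of the mature dendritic cell list held it.

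Cxcl3, a ligand of the neutrophil receptor Cxcr2, was at 156, 81.3, 74.9, 107 and 68.5 CPM in MHC-IIlo and at 959, 826, 663, 640 and 1119 CPM in MHC-IIhi (-3.11 ± 0.32). Cxcl1 was at 22.8, 11, 17, 17.9 and 11.6 against 169, 170, 135, 128 and 224 CPM (-3.36 ± 0.49), and Cxcl2 at 22.7 to 49.4 against 213 to 496 CPM (-3.14 ± 0.49). For each of the 3, MHC-IIhi 7 was the highest library and MHC-IIhi 5 and 6 were the lowest of their group. Cxcl10, an interferon-driven chemokine for activated T cells, had the opposite order within MHC-IIhi, with 350, 400, 1074, 1027 and 202 CPM, against 183, 155, 166, 199 and 118 CPM in MHC-IIlo (-1.89 ± 0.40). Formyl peptide receptors, which lead phagocytes to bacterial peptides, were lower as well (Fpr1 -2.57, Fpr2 -2.33).

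Ccl8, a chemokine for monocytes and T cells, was at 476, 845, 668, 535 and 708 CPM in MHC-IIlo and at 83.2, 119, 88.1, 123 and 66.8 CPM in MHC-IIhi (2.76 ± 0.43). Ccl6 was at 597, 815, 780, 748 and 734 against 175, 227, 160, 148 and 149 CPM (2.1 ± 0.27), and Ccl9 at 1433, 1137, 997, 1477 and 1281 against 348, 328, 526, 437 and 236 CPM (1.76 ± 0.29). None of the 3 overlapped between the subsets. Ccl7 (0.97) and the eosinophil chemokine Ccl24 (2.34) were higher too, whereas Ccl2, the main monocyte chemokine, did not pass. Per length, as CPM per kilobase (RPKM), the highest chemokine levels in MHC-IIlo were those of the platelet factor Pf4 (1338 RPKM), Ccl8 (1265 RPKM) and Ccl2 (706 RPKM). In MHC-IIhi they were those of Ccl5 (749 RPKM), Pf4 (616 RPKM) and Ccl2 (598 RPKM), with Ccl8 at 188 RPKM.

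Cytokine genes were lower in MHC-IIlo in 16 of 24 tested, with a median of -1.48. Il1b, the pyrogenic cytokine, was at 8.23, 6.68, 2.82, 4.97 and 2.48 CPM in MHC-IIlo and at 420, 175, 237, 142 and 369 CPM in MHC-IIhi (-5.73 ± 0.75). Il6, a driver of the acute phase response, was at 0.226 to 0.609 CPM against 34.8, 11.4, 16.9, 13.9 and 31.1 CPM (-5.87 ± 1.02). Csf2, which encodes GM-CSF, was at 0.455 to 1.22 CPM against 11.9, 21.8, 3.48, 10.2 and 22.4 CPM (-4.26 ± 0.64). MHC-IIhi 3 and 7 were the highest libraries for Il1b and Il6, and MHC-IIhi 5 was the lowest for Csf2, yet each MHC-IIhi library stood above every MHC-IIlo library. The leukaemia inhibitory factor Lif (-1.89), Il10 (-1.69), which restrains inflammation, Csf1 (-1.03), the macrophage growth factor, and Tnf (-0.82) were lower by less. Prostaglandin synthesis moved with them: Ptgs2, the inducible cyclooxygenase, was at 11.6, 12.6, 16.6, 16.8 and 13 against 238, 162, 83.4, 73.8 and 432 CPM (-3.81 ± 0.76), and the E2 synthase Ptges was at -1.61. Hpgds, which makes prostaglandin D2, went the other way, at 17, 12.9, 12.2, 10.5 and 14.8 against 1.86, 2.11, 2.66, 4.24 and 1.2 CPM (2.50 ± 0.38).

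Receptors and costimulatory molecules gave a mixed picture. Il2ra, the alpha chain of the interleukin 2 receptor, was at 0.167 to 2.39 CPM in MHC-IIlo against 28.1 to 69.1 CPM (-5.65 ± 0.41, and -6.34 without MHC-IIlo 3). Tnfrsf9, which encodes 4-1BB, was at 12.5, 21.1, 18.6, 16 and 19.6 against 246, 292, 167, 186 and 339 CPM (-3.80 ± 0.45), and Tgfbr2, a receptor for TGF-beta, was higher in MHC-IIlo (1.37). Of 18 tested costimulation and checkpoint ligands 6 were lower, with a median of -0.11. Cd40, which receives T cell help, was at 29.8, 32.7, 19.1, 25.2 and 18.6 against 115, 83.4, 85.0, 115 and 103 CPM (-1.99 ± 0.26), and the PD-1 ligand Pdcd1lg2 was at -4.37 with Cd86 at -0.99. The other PD-1 ligand, Cd274, did not pass.

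NF-kB subunits and the genes that feed back on them were lower in 22 of 26, with a median of -0.87, so the shifts were smaller than those of the cytokines and more even. Nfkbiz, an inducible co-activator, was at 30.5, 25.4, 20.1, 26.5 and 20.2 CPM in MHC-IIlo against 111, 71.3, 74.8, 68.9 and 99.2 CPM (-1.79 ± 0.30). The inhibitor Nfkbia (-1.25) and the subunits Rel (-1.16), Nfkb2 (-0.82) and Nfkb1 (-0.78) passed as well. Early genes of the AP-1, Egr and NR4A families were lower in 17 of 25 (median -0.79). Nr4a3 (chromosome 4, 48045153 to 48086447), an orphan nuclear receptor raised by strong signals, was at 0.175, 0.266, 0.152, 0.0836 and 0.0752 CPM in MHC-IIlo and at 27.7, 28.7, 31.0, 32.8 and 26 CPM in MHC-IIhi (-7.54 ± 0.35). Its spread within MHC-IIhi was narrow, in contrast to Il1b or Ptgs2. Junb passed at -0.92, and Jun and Fos did not. Feedback genes of cytokine receptors followed, with Cish at -2.64, Socs1 at -1.87 and Socs3 at -1.61, and 6 of 13 lower (1 higher, Socs6). No member of the maturation, cytokine, NF-kB and early gene lists was called higher by edgeR in the fit of the 20 cultured libraries. At an unadjusted p under 0.05 there were 0, 1, 0 and 1, DESeq2 called 0 in each, and limma voom called 0, 1, 0 and 1. Other edgeR fits did call some: the 10 no-lactate libraries alone gave Il1rn (0.54) and Egr2 (1.12) higher, and all 30 libraries gave Egr2 (1.12). Without lactate MHC-IIlo 5 in the fit edgeR called 1 cytokine and 1 early gene higher.

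Arginine-using enzymes of both activation types were lower in MHC-IIlo. Nos2 (chromosome 11, 78920787 to 78960254), which makes nitric oxide, was at 142, 275, 257, 194 and 157 CPM in MHC-IIlo and at 1642, 1788, 1083, 1247 and 1992 CPM in MHC-IIhi (-2.91 ± 0.36). Arg1 (chromosome 10, 24915208 to 24927470), arginase, was at 304, 483, 295, 375 and 150 against 1768, 2108, 1811, 1231 and 1052 CPM (-2.30 ± 0.30, and -3.08 in the FPKM table). The arginine carrier Slc7a2 was at 23.4, 48.9, 44.3, 35.1 and 41.8 against 391, 405, 160, 246 and 410 CPM (-3.05 ± 0.38). Ass1, which remakes arginine from citrulline (-2.59), the second arginase Arg2 (-1.29) and the spermine oxidase Smox (-1.24) passed too, and 9 of the 22 genes of arginine and polyamine metabolism were lower in all. Slc7a11, the cystine carrier, was at 44.3, 36.0, 46.8, 37.0 and 37.7 against 407, 413, 233, 249 and 518 CPM (-3.17 ± 0.33). For Slc7a2 and Slc7a11 MHC-IIhi 5 and 6 were the lowest of their group and still above every MHC-IIlo library.

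Glycolysis and hypoxia response genes were lower in MHC-IIlo, 16 of 27 with 1 higher (median -0.74) and 20 of 29 with 1 higher (median -0.92). The promoters of Pfkfb3 (chr2:11553930-11554179) and Bnip3 (chr7:138909507-138909756), both on the minus strand, are shown with the hypoxia element ACGTGC in capitals (RefSeq, GRCm38.p6). It starts 60 bases before the start site in Pfkfb3. In Bnip3 it stands on both strands, 109 and 107 bases before the start, in overlapping letters.

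Pfkfb3: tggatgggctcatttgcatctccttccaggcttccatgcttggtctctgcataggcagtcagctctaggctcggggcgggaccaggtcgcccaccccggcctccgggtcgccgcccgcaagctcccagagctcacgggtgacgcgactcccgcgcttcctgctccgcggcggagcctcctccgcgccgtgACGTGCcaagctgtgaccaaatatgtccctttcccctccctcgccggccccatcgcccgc
Bnip3: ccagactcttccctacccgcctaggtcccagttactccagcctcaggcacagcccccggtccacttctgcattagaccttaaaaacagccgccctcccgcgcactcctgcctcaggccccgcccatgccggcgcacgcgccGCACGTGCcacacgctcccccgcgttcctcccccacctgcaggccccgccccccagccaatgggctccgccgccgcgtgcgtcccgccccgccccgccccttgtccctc

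The element was found on either strand in 13 of 36 matched promoters of the hypoxia list, in 8 of 43 of the glycolysis list and in 5.91% of 32851 promoters of all genes.

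Pfkfb3, which drives glycolytic flux, was at 157, 172, 142, 151 and 146 CPM in MHC-IIlo and at 412, 440, 407, 470 and 449 CPM in MHC-IIhi (-1.50 ± 0.14), with a narrow spread in both subsets. Slc2a1, the glucose carrier Glut1, was at 109, 134, 125, 126 and 106 against 452, 481, 235, 214 and 603 CPM (-1.72 ± 0.29). Slc16a3, which exports lactate, was at 180, 254, 201, 213 and 150 against 745, 657, 450, 420 and 803 CPM (-1.62 ± 0.19). In Slc2a1 and Slc16a3, unlike Pfkfb3, MHC-IIhi 5 and 6 stood below the other 3 libraries of their subset. Pgk1 (-1.57), Gpi1 (-1.44), Hk2 (-1.0), Ldha (-0.70) and Pkm (-0.66, and -1.26 in the FPKM table), enzymes along the pathway, passed as well. Ldhb, the other lactate dehydrogenase chain, was at or under 2.05 CPM in each library and did not pass (0.11 ± 0.56).

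Bnip3, a mitochondrial protein raised by low oxygen, was at 21.8, 37.8, 29.1, 36.1 and 23.9 CPM in MHC-IIlo against 154, 170, 81.1, 80.2 and 176 CPM (-2.15 ± 0.29). Ddit4, an inhibitor of mTOR, was at 7.0, 4.29, 5.02, 4.97 and 2.6 against 54.9, 49.9, 39.9, 29.5 and 75.0 CPM (-3.38 ± 0.37), and Vegfa, the vessel growth factor, at 33.0 to 57.3 against 99.2 to 181 CPM (-1.65 ± 0.26). Hif1a itself was at -0.82. Epas1, which encodes HIF-2 alpha, was the member that was higher, at 5.85, 11.8, 15, 7.19 and 10.1 against 0.786, 2.35, 1.41, 2.19 and 2.03 CPM (2.53 ± 0.32). The subsets did not overlap in Bnip3, Ddit4, Vegfa or Epas1.

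Oxidative metabolism showed little of this. Of 42 tested nuclear genes of the respiratory chain 1 was higher (Ndufa4, 0.53) and none lower with edgeR (0 at an unadjusted p under 0.05, with DESeq2 and with limma voom), and the TCA cycle list had 3 higher and 2 lower of 29, near or under the background shares. The citrate cycle enzymes Sdha (0.55) and Idh2 (0.63) were higher and the ATP citrate lyase Acly (-0.35) lower. Of 13 listed genes of the mitochondrial genome 6 had no read in any of the 10 libraries. Among the 7 tested, 6 were lower, but 3 without MHC-IIhi 5 or without MHC-IIlo 3, and 1 in the FPKM table. The 1 that kept its call there was mt-Nd1, a subunit of complex I, at 303, 233, 368, 406 and 294 CPM against 873, 829, 899, 752 and 750 CPM (-1.35 ± 0.20).

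**Figure D2:**
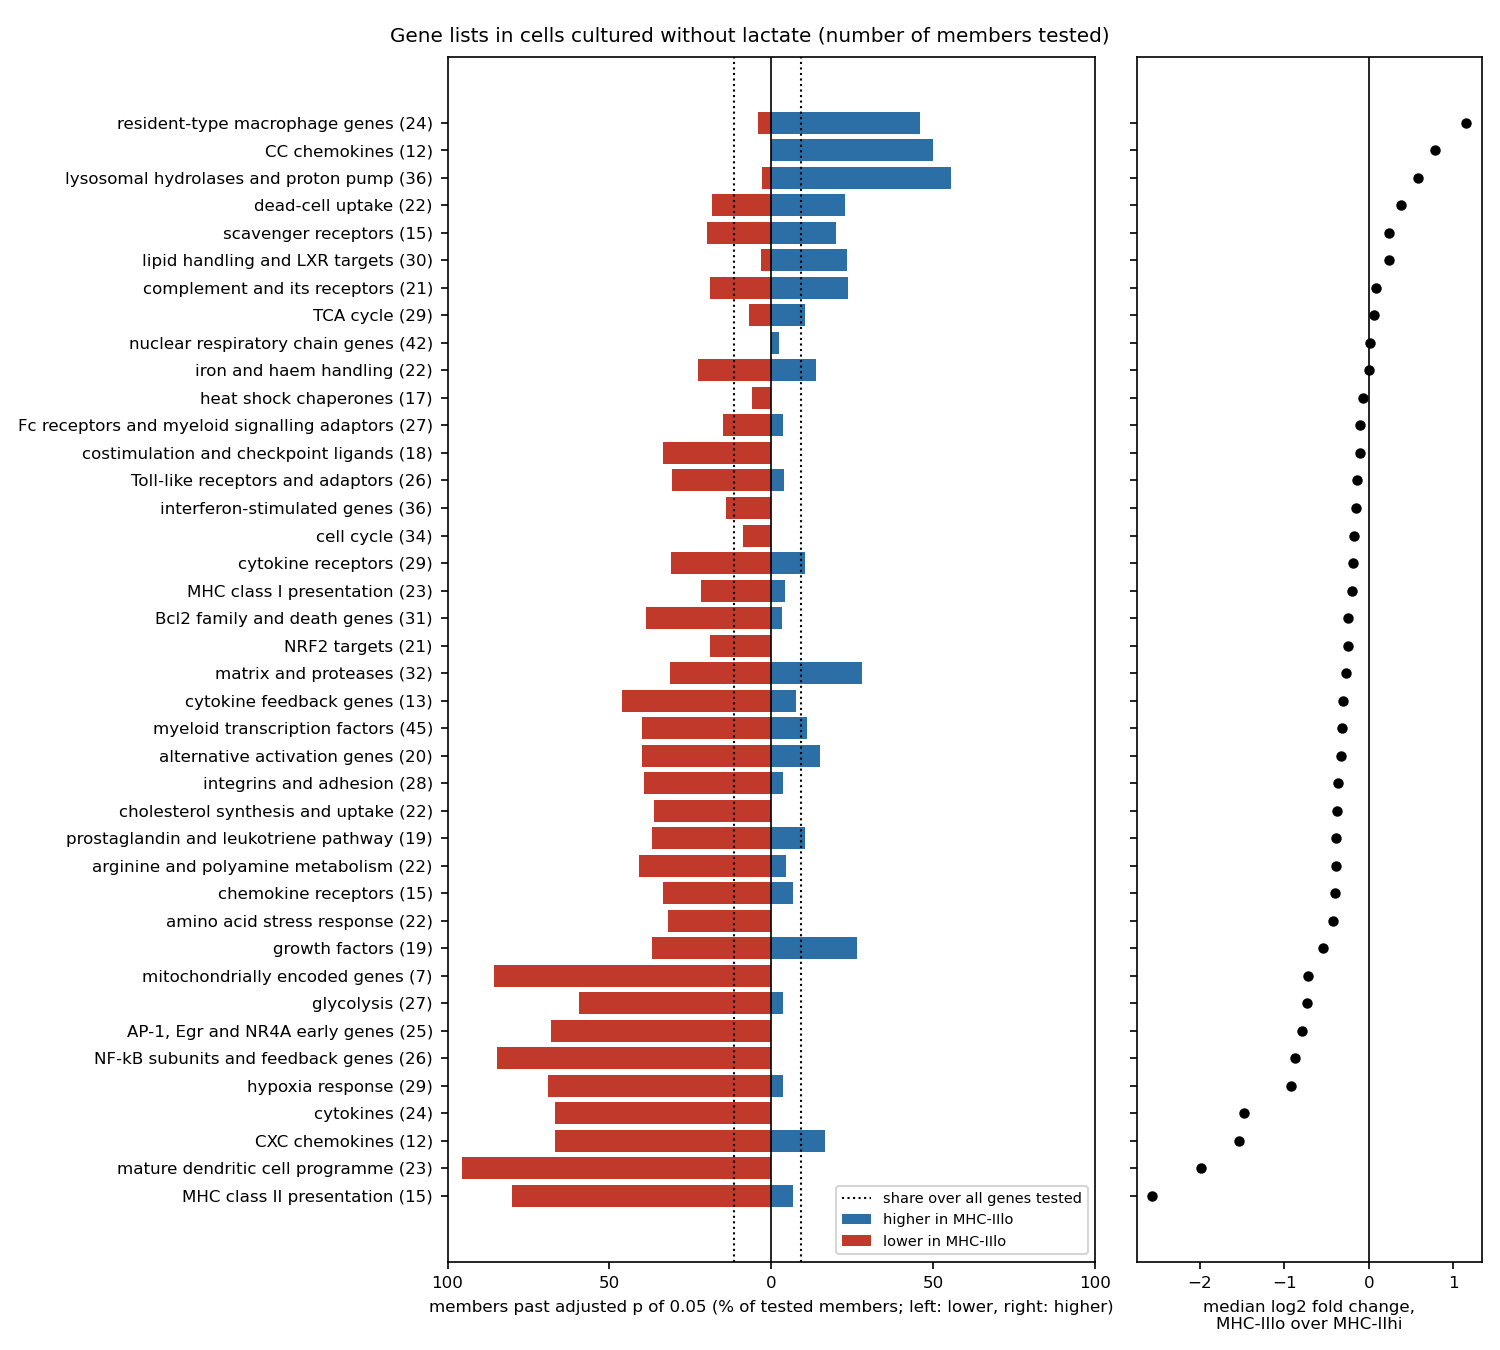
Share of tested members that passed in each of the 40 gene lists, higher or lower in no-lactate MHC-IIlo, with dotted lines at the background of 9.20% higher and 11.6% lower over all genes, and each list's median log2 fold change beside it. Maturation, mitochondrially encoded, NF-kB and class II genes have the largest shares lower among the 40 lists, and lysosomal, CC chemokine and resident-type genes the largest shares higher.

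On the MHC-IIlo side stood genes of resident-type macrophages, with 11 of 24 tested higher and 1 lower (median 1.15). Folr2, a folate receptor of resident macrophages, was at 235, 314, 228, 219 and 228 CPM in MHC-IIlo and at 59.7, 73.8, 55.2, 49.8 and 44.2 CPM in MHC-IIhi (2.12 ± 0.30). Cbr2, a carbonyl reductase, was at 55.2, 90.5, 39.0, 64.7 and 59.1 against 7.22, 9.48, 7.61, 8.02 and 4.16 CPM (3.09 ± 0.41). Mrc1, the mannose receptor, was at 442, 348, 339, 432 and 506 against 152, 179, 190, 171 and 138 CPM (1.32 ± 0.23). For Folr2 and Cbr2 MHC-IIlo 3 was the highest library, as it was for the class II genes that were low in its group, and for Mrc1 it was among the lowest. The ubiquitin ligase Wwp1 (1.6), the ficolin Fcna (1.65), the platelet factor Pf4 (1.13) and the growth factor Igf1 (1.91) were higher too. Maf, a transcription factor of resident macrophages, did not pass (-0.01).

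Genes of dead-cell uptake and lipid transport held some of the larger rises. Gas6 (ENSMUSG00000031451, chromosome 8, 13465374 to 13494535), which bridges dead cells to phagocytes, was at 97.8, 110, 101, 80.7 and 149 CPM in MHC-IIlo and at 10.2, 17.9, 11, 22.2 and 7.9 CPM in MHC-IIhi (2.98 ± 0.38). Axl, one of its receptors, was lower (-1.32), and Mertk, another, did not pass with edgeR (0.82) and passed with limma voom (1.16, adjusted p = 0.0138). Apoe, the lipid carrier, was at 1285, 1843, 1185, 1302 and 1558 against 361, 316, 323, 328 and 239 CPM (2.20 ± 0.22). Fcgrt, the receptor that recycles IgG and albumin, was at 52.2, 126, 109, 65.6 and 88.0 against 21.5, 33.5, 14.1, 19.2 and 19.3 CPM (2.05 ± 0.37). These 3 genes did not overlap between the subsets. As whole lists, dead-cell uptake (5 higher and 4 lower of 22) and lipid handling (7 and 1 of 30) rested on calls close to the threshold. The count of dead-cell uptake genes that were higher was 1 without MHC-IIhi 4 or MHC-IIlo 6, 2 without MHC-IIhi 3 or 7, and 3 without MHC-IIlo 1, 3 or 5. That of lipid handling genes was 3 without MHC-IIhi 7 or MHC-IIlo 1, and 4 without MHC-IIhi 3 or 5 or MHC-IIlo 4 or 6.

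Lysosomal genes were higher in MHC-IIlo in 20 of 36 tested, all 20 without overlap (8.75% of all genes tested), and lower in 1, the protease Ctsc (-1.48), with a median of 0.58. No alternative moved the count of 20 by more than 1.5 times. Promoters of Ctsd (minus strand, chr7:142387828-142388077) and Lamp1 (plus strand, chr8:13158911-13159160) are shown with the CLEAR element CACGTGAC, known from lysosomal genes, in capitals (RefSeq, GRCm38.p6). It starts 245 and 98 bases before the start site in Ctsd and 28 bases before it in Lamp1.

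Ctsd: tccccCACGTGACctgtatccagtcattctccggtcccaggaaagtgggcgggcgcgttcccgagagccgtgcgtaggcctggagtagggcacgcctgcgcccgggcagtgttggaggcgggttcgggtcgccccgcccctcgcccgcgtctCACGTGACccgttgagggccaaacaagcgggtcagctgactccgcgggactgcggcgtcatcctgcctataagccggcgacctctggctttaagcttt
Lamp1: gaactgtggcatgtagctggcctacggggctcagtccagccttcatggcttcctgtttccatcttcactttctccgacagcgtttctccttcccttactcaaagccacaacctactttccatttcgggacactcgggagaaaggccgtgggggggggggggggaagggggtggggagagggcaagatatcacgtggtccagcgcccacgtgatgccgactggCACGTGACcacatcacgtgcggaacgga

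On either strand it was found in 8 of 34 matched promoters of the lysosomal list and in 2.25% of 32851 promoters.

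Ctsd (ENSMUSG00000007891, chromosome 7, 142371148 to 142388038), an aspartic protease, was at 10930, 12296, 9838, 9618 and 11179 CPM in MHC-IIlo and at 5337, 6191, 3785, 5849 and 4615 CPM in MHC-IIhi (1.07 ± 0.25, edgeR adjusted p = 0.00432). In the FPKM table, where the most abundant genes are pulled to the same rank value in each library, it was at 0.58 (limma adjusted p = 0.112). Lamp1, a membrane protein of lysosomes, was at 3099, 3435, 2801, 3118 and 3389 against 1931, 2083, 1630, 2100 and 1507 CPM (0.78 ± 0.17). The collagen-degrading Ctsk was at 691, 974, 786, 1084 and 1523 against 291, 359, 252, 388 and 322 CPM (1.66 ± 0.26). Thus no library of the other subset reached even the lowest MHC-IIlo value of these genes. The proton pump subunits Atp6v0d2 (1.48) and Atp6v1h (0.79), the sphingomyelinase Smpd1 (0.88) and the protective protein Ctsa (0.83) passed too. The list summed to 77616 to 99648 CPM in MHC-IIlo and 41325 to 61872 CPM in MHC-IIhi, and per length Psap, Ctsl, Ctsd and Ctsb were among the 10 genes with the highest RPKM in MHC-IIlo. Psap, Ctsl and Ctsb were among the 10 highest in MHC-IIhi too, with Ctsd at rank 12.

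Matrix and growth factor genes were divided. Timp2, an inhibitor of matrix metalloproteinases, was at 463, 547, 436, 454 and 551 CPM in MHC-IIlo against 121, 156, 126, 161 and 107 CPM (1.88 ± 0.24), and Mmp27 (1.91) and the plasminogen activator Plau (1.23) were higher. Fibronectin Fn1 (-2.05), the TGF-beta-induced matrix protein Tgfbi (-1.97) and the other plasminogen activator Plat (-3.0) were lower, so that 9 matrix genes were higher and 10 lower of 32. Pdgfc (1.43) and Igf1 (1.91) stood against Vegfa (-1.65) and Pdgfb (-2.30) among growth factors. Transcription factors leaned to MHC-IIhi, with 18 of 45 lower, among them Runx3 (-2.36), the vitamin D receptor Vdr (-3.03), Irf4 (-2.36), Irf8 (-1.09) and Cebpb (-1.02). Cebpa (1.09), Klf2 (1.05) and Bhlhe41 (1.06) were higher.

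Cell cycle and interferon genes were called about as often as the background of 9.20% higher and 11.6% lower, or less. Cell cycle genes had 3 lower of 34, with the cyclin Ccnd2 (-1.67) and the cycle inhibitor Cdkn1a (-1.99) lower side by side and Mki67 not past the test. Interferon-stimulated genes had 5 lower of 36, of which Gbp5 was at -1.18 and Rsad2 at -0.88, and 8 without MHC-IIhi 7. MHC class I presentation, above the background, had 1 higher and 5 lower of 23 (3 lower without MHC-IIhi 3). H2-K1 (0.03) and B2m (0.07), its heavy and light chains, did not pass.

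**Figure D3:**
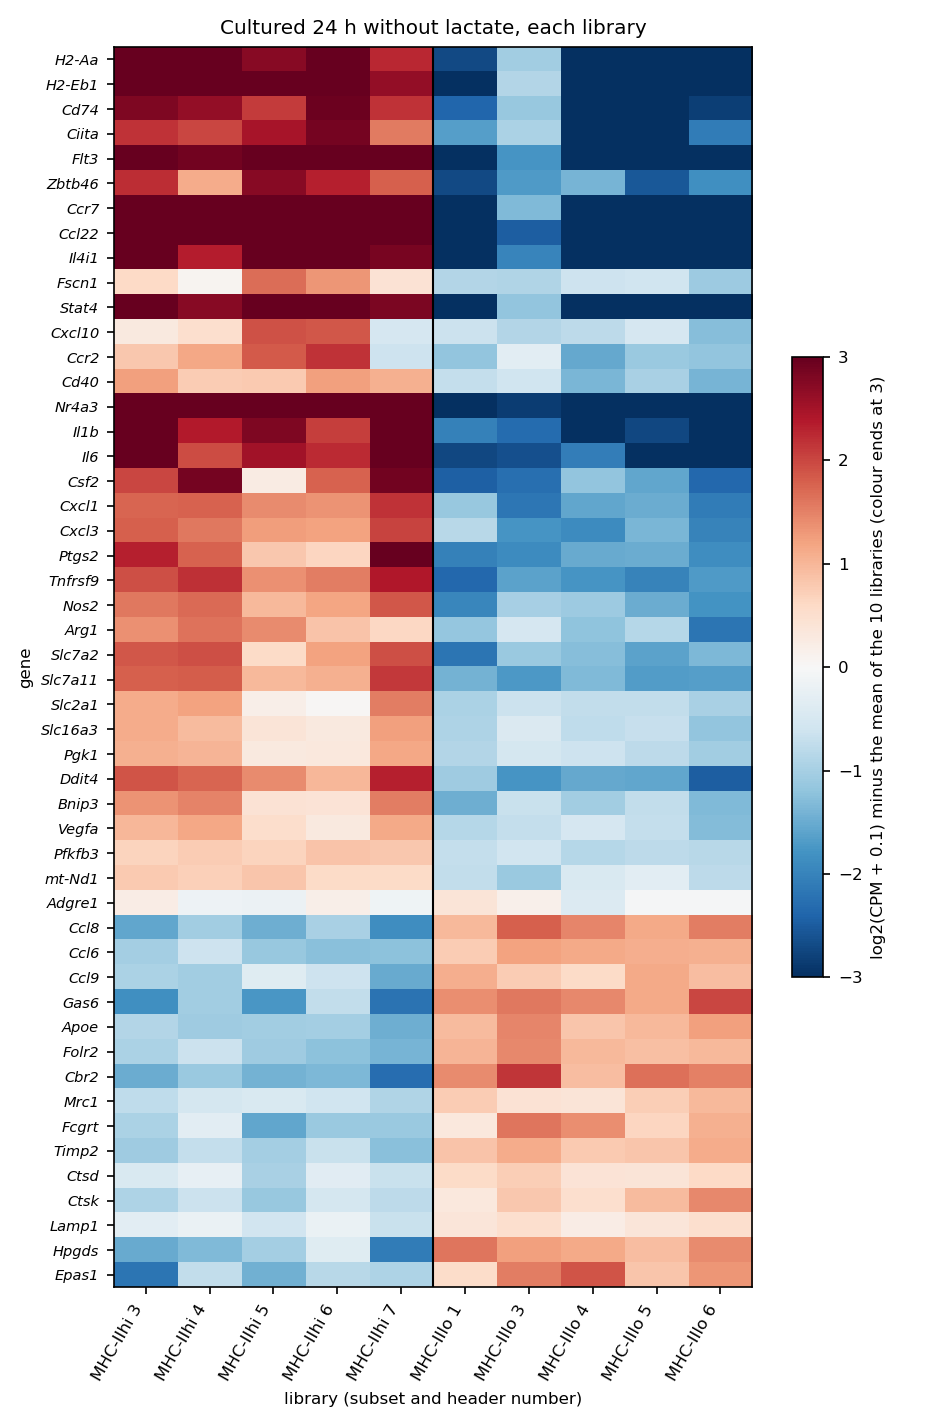
log2(CPM + 0.1) of 50 genes in each of the 10 no-lactate libraries, minus the gene's mean over the 10, with colours ending at 3 on either side. Most genes other than Adgre1 change colour between the subsets. MHC-IIhi 7 lies on the MHC-IIlo side of the mean for Ccr2 (14.3 CPM) and Cxcl10 (202 CPM). Within MHC-IIhi the libraries 5 and 6 are paler than 3, 4 and 7 for Slc2a1, Ptgs2, Bnip3 and Pgk1. They are darker for Cxcl10 and Fscn1.

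Within MHC-IIhi the libraries were not alike. The second principal component (12.5% of the variance) had MHC-IIhi 5 at -39.8 and 6 at -28.2, and MHC-IIhi 3, 4 and 7 at 22.5, 15.2 and 31.7. In the values above, MHC-IIhi 5 and 6 were the lowest of their subset for Cxcl1, Cxcl2, Cxcl3, Ptgs2, Slc2a1, Slc16a3, Slc7a11, Bnip3 and Pgk1. They were the highest for Cxcl10, Ccr2, Flt3, Ccr7 and Fscn1. What the header numbers stand for is not given in the sources used here, and no test was made of this spread, since it was seen in the values themselves. Summed dendritic cell markers without Ccr7 were 95 and 71.1 CPM in these 2 libraries and 29.8 to 53.9 CPM in the other 3, with Flt3 part of the sum. Among MHC-IIlo libraries the second component ran from -7.94 to 13.1.

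Set beside the fresh cells, the subset difference after culture was another one for many genes. Fresh MHC-IIlo and MHC-IIhi differed in 3737 of 12787 genes tested (29.2%), 1790 higher and 1947 lower (15.2%). The interaction of subset with culture passed in 1957 of 13682 genes (14.3%), 825 above and 1132 below 0. These counts by direction are the background for the list counts below. The 1957 held 1024 of the genes called after culture. Of the genes called after culture, 732 lower and 576 higher were tested in fresh cells and did not pass there, and 626 of these 1308 passed the interaction. The interaction was fitted on the 20 libraries without lactate, so it can differ slightly from the gap between the side-by-side values. Fresh libraries came from fewer cells and were handled otherwise, which the interaction does not part from culture itself.

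The maturation genes differed far more after culture than before it. In fresh cells 5 of 21 tested were lower in MHC-IIlo and 3 higher (median -0.17), against 22 of 23 lower after culture. The 3 higher were near the background of 1790 in 12787 genes. The interaction was below 0 in 19. Il4i1 did not pass in fresh cells (-0.33) and was at -6.23 after culture, a difference of -5.90 ± 0.58 (edgeR adjusted p = 8.2e-07). Ccr7 went from -2.68 to -7.47 and Ccl22 from -3.51 to -8.14, differences of -4.79 ± 1.02 and -4.64 ± 0.70.

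Some CXC chemokines and cytokines were on the other side in fresh cells. Among 11 CXC chemokines tested in fresh cells 4 were higher in MHC-IIlo and 1 lower, and 2 of the 4, Pf4 and Ppbp, were higher after culture as well. Among 22 cytokines 3 were higher and 2 lower, a share under the 29.2% of all genes. Cxcl3 and Il6 were higher in fresh MHC-IIlo (1.54 and 1.42) and lower after culture (-3.11 and -5.87). Cxcl1 did not pass in fresh cells (0.84) and was at -3.36 after culture. Arg1 likewise was higher in fresh MHC-IIlo (0.93) and lower after culture (-2.30). Hypoxia genes were higher in fresh MHC-IIlo in 8 and lower in 4 of 29. The 4 lower were near the background of 15.2% lower over all genes. The interaction was below 0 in 21, against 1132 of 13682 over all genes, with Bnip3 at 0.51 before and -2.15 after. Glycolysis genes had an interaction below 0 in 14 of 27 and above in 1.

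Other lists had most of their calls on the same side in fresh and cultured cells. The class II list had 12 lower and 2 higher of 14 in fresh cells (median -3.84), and 4 interactions were above 0, among them H2-DMb1 (-3.26 before, -1.61 after, a difference of 1.65). Resident-type genes had 18 higher and 2 lower of 23 in fresh cells (median 1.44) against 11 and 1 of 24 after culture. Of their interactions 4 were below and 2 above 0, and whether these counts exceed the background was not tested. Lysosomal genes had 20 and 3 of 36 in fresh cells (median 0.32). Cbr2 was at 1.85 before and 3.09 after, and Ccl6 at 0.71 and 2.1. Adgre1 (1.64 to 0.05) and Maf (1.63 to -0.01), higher in fresh MHC-IIlo, did not pass after culture, and Lpl, lipoprotein lipase, went from -1.26, lower, to 0.83, which did not pass.

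**Figure D4:**
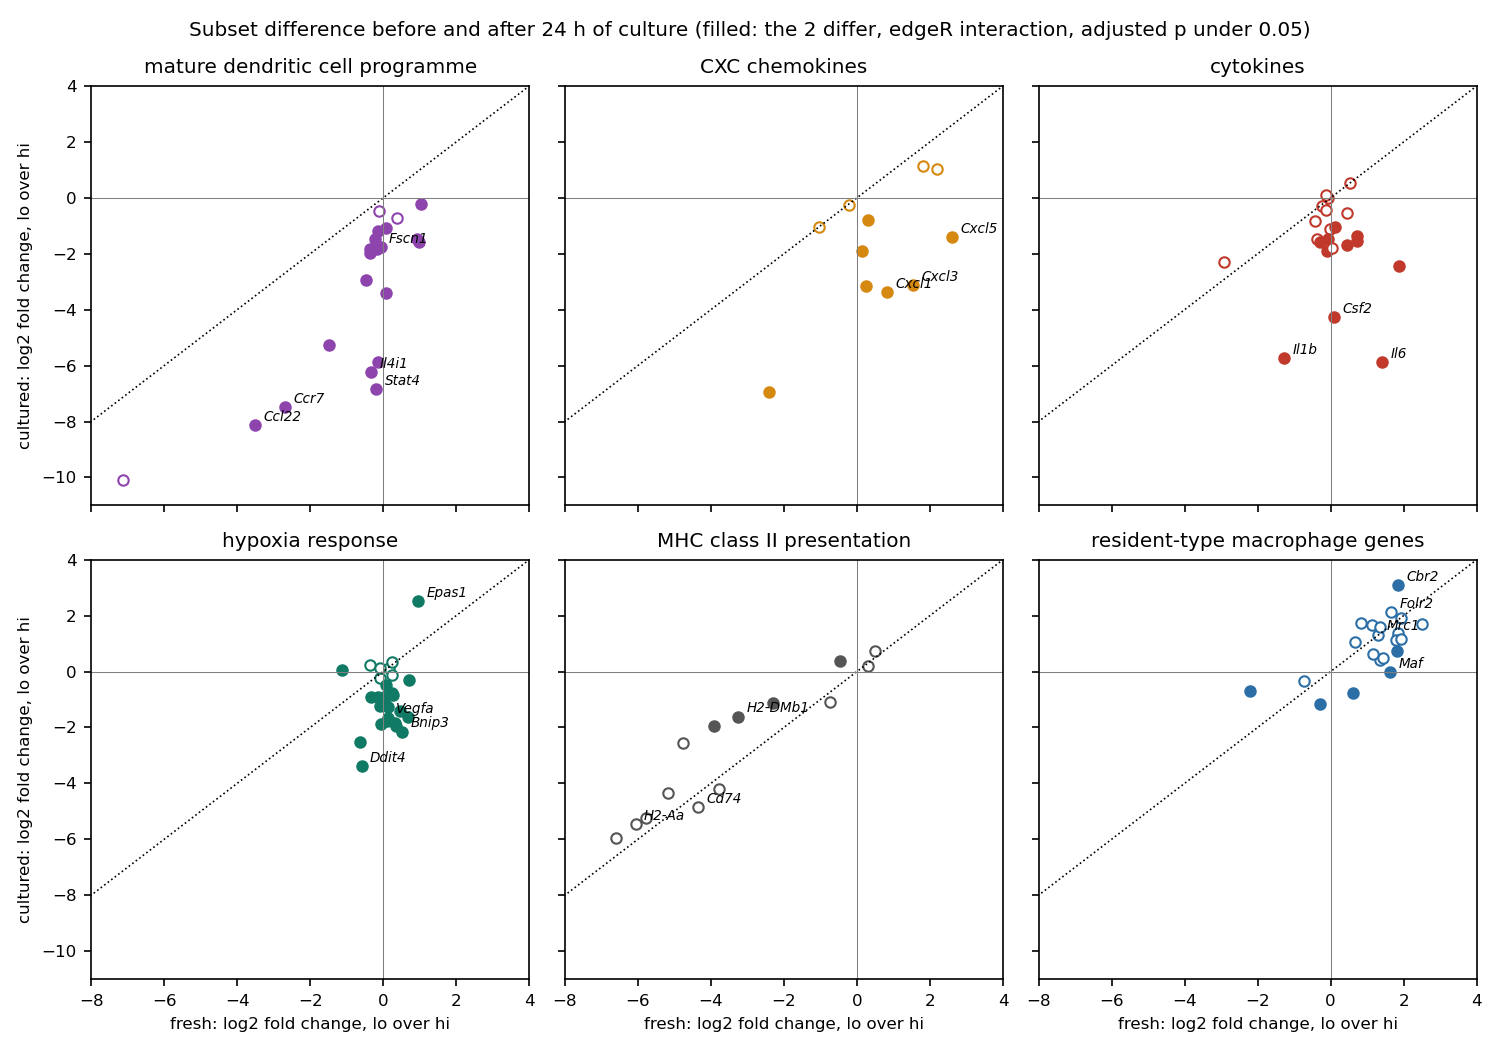
log2 fold change of MHC-IIlo over MHC-IIhi in fresh cells (horizontal) and after culture without lactate (vertical) for the members of 6 gene lists, filled where the interaction passed. Most maturation genes lie below the diagonal, and class II genes lie low on both axes.

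With lactate in the medium the same contrast gave 3045 genes of 13593 (22.4%, 9.13% higher and 13.3% lower), from libraries of their own. Of the 2830 genes, 1806 (63.8%) were called in the same direction there, and 2749 had the same sign. The interaction of subset with lactate passed in 0 genes (0.00%) with edgeR, 1018 had an unadjusted p under 0.05, and the smallest adjusted p was 0.274. DESeq2 called 3, limma voom 2, the fit of all 30 libraries 1 and a block on the header number 2. A p that misses the threshold does not show that the differences were equal. Lactate MHC-IIlo 5 stood apart, with 7.16% of its counts in its 10 most abundant genes against at least 12.7% in the other lactate MHC-IIlo libraries and a TMM factor of 1.28. Without it the lactate contrast gave 1616 genes higher and 1869 lower, 2000 of the 2830 were called in the same direction, and the interaction again passed in 0 genes with edgeR (884 at an unadjusted p under 0.05). The same fit gave 3388 genes for the contrast without lactate, 1492 higher and 1896 lower.

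By group, the class II list had 12 lower and 1 higher in lactate as without it, with a median of -3.88 against -2.56, and the maturation list 21 lower against 22. Glycolysis genes had 12 lower in lactate against 16 without, hypoxia genes 16 against 20, AP-1 and other early genes 10 against 17, and cytokines 11 against 16. CC chemokines had 7 higher against 6, resident-type genes 11 in both and lysosomal genes 15 against 20. Without lactate MHC-IIlo 5 the lysosomal count was 26 in lactate against 23 without it, and the resident-type count 15 against 14. These counts lie side by side and their difference was not tested as lists.

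**Figure D5:**
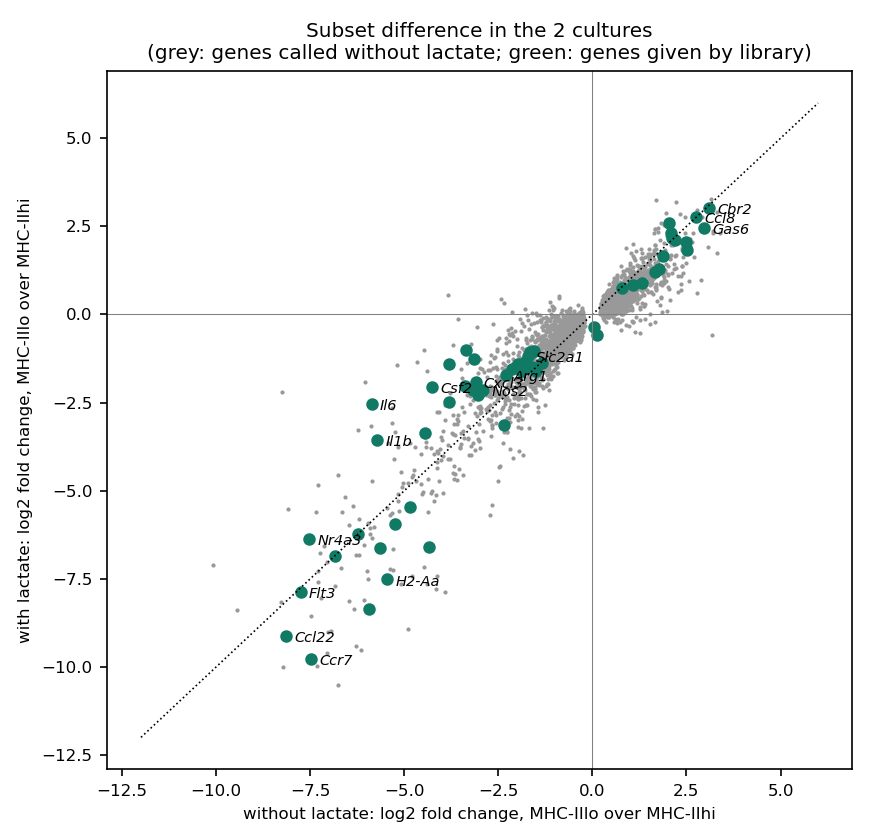
log2 fold change of MHC-IIlo over MHC-IIhi after culture without (horizontal) and with 20 mM lactate (vertical). Grey points are the genes called without lactate, and green points are the genes whose values are given by library. Of the 2830 genes called without lactate, 2749 lie on the same side of 0 on both axes.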

How the data were processed

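RNA sequencing was done in bulk on macrophages sorted from mouse tumours, 5 libraries for each of 6 groups. The deposited matrix of raw counts per gene was used for all main results; its reads had been trimmed with Trimmomatic, aligned with STAR to GRCm38 and counted with featureCounts, per the submitters' processing notes, which give no versions. The strand setting of the counting is not given in the sources used here. A second deposited table holds FPKM, made by the authors, and served as an alternative; multiplied by gene length, its 13778 values per library have the same distribution in all 30 libraries (relative tolerance 1e-09). Header numbers of cultured columns differ from those in the labels, so columns were placed in groups and named by header number. Every value column had a group (0 without one).

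With edgeR 4.0.16 and limma 3.58.1 in R 4.3.3, the 20 cultured libraries were filtered (filterByExpr), scaled (TMM) and fitted with group means. The quasi-likelihood F test was 2-sided, and Benjamini-Hochberg adjusted p-values were computed over every gene tested, with a threshold of 0.05. Interactions with fresh cells came from the 20 libraries without lactate. The fresh pair was fitted on its own 10 libraries. On data simulated from these libraries with 13459 genes the test recovered 31.9% of 1.5-fold, 65.1% of 2-fold and 90.6% of 4-fold changes, and 3.97% of its calls were false. Few genes were changed in that simulation and its libraries varied independently, unlike the MHC-IIhi libraries here. These shares therefore need not hold for the genes called in the real data.

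Genes named were the 12 largest rises and 12 largest falls among called genes of average log2 CPM of at least 5 without overlap, up to 6 members of each list by p with defining members, Ldhb, Il1b, Vegfa, Nos2, Mrc1, Arg1, Cd74 and H2-Ab1, the 6 largest interactions with fresh cells in each direction (same log2 CPM minimum of 5), and the 6 called genes of average log2 CPM of at least 8 with the smallest p. Other genes printed are members of the 40 gene lists and 11 marker lists or were chosen after their values were seen. The comparison, lists and rules were chosen with earlier results of these data known.

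Alternatives were RLE size factors, no filter, DESeq2 1.42.0, limma voom with quality weights, the 10 libraries alone, all 30 in 1 fit, log2(FPKM + 1) and log2(FPKM + 0.1) with limma (minimum FPKM 1, reached in 5 or more), no FPKM filter, a replicate block on the header number, and each library left out. Leaving lactate MHC-IIlo 5 out was added after seeing the data. Promoters were read from RefSeq (GRCm38.p6), and the counts of matches include bases just after the start site, whereas the sequences shown end at it.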

Additional observations from a re-analysis of the deposited data

Results flagged for a closer look

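Among 112 sets of 5 values (56 genes in 2 subsets), 10 held a library far from the other 4, and each time it was no-lactate MHC-IIlo 3; such a rule marks about 1 set in 20 by chance. In class II genes this library was the highest of its group, with H2-Aa at 53.3 CPM, H2-Eb1 at 29.6 CPM, H2-Ab1 at 71.6 CPM and Cd74 at 222 CPM. It was also the highest for Ccr7 (3.11 CPM), Il4i1 (2.54 CPM), Stat4 (0.645 CPM), Flt3 (0.531 CPM), Ccr2 (17.7 CPM) and Folr2 (314 CPM), the last a gene of the MHC-IIlo side.

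The 26 genes listed here were set side by side in fresh and cultured cells above or were chosen for their interaction. Passing the edgeR interaction test with Benjamini-Hochberg adjustment was a condition for the list, so that all 26 passed is no result. What is given is the change in the log2 difference between MHC-IIlo and MHC-IIhi from fresh to cultured cells. The log2 difference moved toward MHC-IIhi most for Il6 (-7.30, edgeR adjusted p = 6.7e-08), Il4i1 (-5.90), Ccr7 (-4.79), Ccl22 (-4.64), Cxcl3 (-4.64) and Il1b (-4.47) among the 26. Cxcl1 (-4.20) and the neutrophil chemokine Cxcl5 (-4.01) followed, then the arginine enzymes Arg1 (-3.24) and Nos2 (-3.04). Genes of hypoxia and glycolysis moved the same way, with Bnip3 at -2.66, Pfkfb3 at -2.10, Vegfa at -1.77 and Slc2a1 at -1.64. So did Fscn1 (-1.69), Maf (-1.65) and Adgre1 (-1.60).

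Toward MHC-IIlo moved Lpl (2.08), the deiodinase Dio2 (2.03), Tmem154 (1.91), Fam198b (1.86), the inhibitory lectin Clec12a (1.71), Syn1 (1.67), H2-DMb1 (1.65), Ccl6 (1.39) and Cbr2 (1.24, adjusted p = 0.0208). H2-DMb1 was on the MHC-IIhi side both before (-3.26) and after (-1.61). Dio2 and Fam198b were higher after culture (2.09 and 2.21), and Dio2 did not pass in fresh cells (0.04).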

How the results depend on the processing

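Of the 293 named genes, no value changed sign past the threshold under any alternative run: 5788 of 6109 values kept their side of the threshold, 269 no longer passed and 52 newly did. Leaving out each of the 10 libraries in turn gave 877 to 1093 genes higher and 1328 to 1591 lower. Counts under the other alternatives stayed within 1.5 times except for limma voom with quality weights, which called 2022 genes higher. The differences between no-lactate and fresh cells above 0 numbered 825, and 490 with all 30 libraries in the fit. The interaction with lactate, 0 genes in each direction with edgeR, gave 1 above 0 and 2 below 0 with DESeq2, 2 below 0 with limma voom, 1 below 0 with all 30 libraries and 2 below 0 with the replicate block. The cause was not tested. Same-number libraries correlated in their deviations at 0.27, -0.02, 0.21 and 0.16 for numbers 3 to 6, and other-number pairs at -0.26 to 0.19. For MHC-IIlo 3, 5 and 6 the same-number library was the best correlated one, and for MHC-IIlo 4 it was not. Since header numbers of cultured columns differ from the replicate numbers of the labels, a block on them was kept as an alternative only. The replicate block gave 3210 genes (1440 higher), of which 2529 were among the 2830.

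On log2(FPKM + 1) low genes shrink by construction, so that Nr4a3 was at -2.48, and calls of the abundant Ctsd, Gpnmb and mt-Co1 ended in that table. Of 102 list counts under each alternative, 247 of 2142 values moved by more than 1.5 times. With few counts in MHC-IIlo, single libraries weigh on a fold change: Flt3 was at -7.75 with all libraries and at -9.76 without MHC-IIlo 3.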
